A study of Mus musculus with 24 samples.

Results

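The genes described here are 7 genes of cholesterol synthesis: Srebf2, Hmgcs1, Idi1, Fdps, Fdft1, Sqle and Lss. They were chosen by name, as the table's entries carrying these symbols, and make up 7 of the 14785 genes with values. They comprise a transcription factor and 6 enzymes, and no gene for a lipoprotein receptor is among them. Bulk RNA sequencing was done on kidneys of male C57/BL6 mice aged 8 weeks at the start, with 4 animals in each of 6 groups. The 4 animals were selected from larger groups, and how they were selected is not given in the sources used here. Sham mice had sham surgery. In the UUO2 and UUO7 groups the ureter of 1 kidney was tied (unilateral ureteral obstruction) for 2 or 7 days. In the R1W, R2W and R4W groups the obstruction was undone after 7 days by reimplanting the ureter, and the kidney was taken 1, 2 or 4 weeks later. No genetic change is given for any group, and all libraries were made by polyA selection. The labels name the tissue only as kidney, and each value averages over all cell types present.

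Cells make cholesterol from acetyl-CoA through the mevalonate pathway. Hmgcs1 encodes the cytosolic HMG-CoA synthase near its start, Idi1 the isomerase that interconverts the isoprenoid units, and Fdps the synthase that joins them into farnesyl diphosphate. Fdft1 (squalene synthase) commits farnesyl diphosphate to sterols, Sqle (squalene epoxidase) oxidises squalene in a rate-limiting step, and Lss (lanosterol synthase) closes the sterol rings. Srebf2 encodes SREBP2, a factor held in the endoplasmic reticulum when sterol is plentiful and released by proteolysis when it is scarce. It then activates the genes of this pathway through sterol regulatory elements, often beside NF-Y boxes. Proximal tubule cells, the most numerous epithelial cells of the kidney cortex, are metabolically active and handle lipids.

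Hmgcs1 and Idi1 had the deepest falls below sham of the 7 genes, so the promoter letters upstream of them are shown beside those of Srebf2 and Lss. These are the 4 of 7 members with a RefSeq window here (GRCm38.p6). All 4 lie on the plus strand and read 5′ to 3′, from 250 bases before the RefSeq start up to the last base before that start or, where it comes first, before the gene as GENCODE annotates it. For Srebf2 the GENCODE gene begins at 82147181, ahead of the table's own start for it, so the window ends there. They span chr15:82147019-82147180 for Srebf2, chr13:119690101-119690350 for Hmgcs1, chr13:8885356-8885500 for Idi1 and chr10:76531355-76531587 for Lss. Capitals mark matches on either strand to the sterol regulatory element TCACNCCAC, to its shorter core TCACNCCA, or to the NF-Y box CCAAT, which reads ATTGG on the opposite strand. The shorter core overlaps every match to the longer one and was added after the windows had been read.
Srebf2: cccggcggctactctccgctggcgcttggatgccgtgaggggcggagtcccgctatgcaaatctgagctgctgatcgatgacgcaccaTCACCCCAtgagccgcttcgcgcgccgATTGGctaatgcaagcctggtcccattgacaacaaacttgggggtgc
Hmgcs1: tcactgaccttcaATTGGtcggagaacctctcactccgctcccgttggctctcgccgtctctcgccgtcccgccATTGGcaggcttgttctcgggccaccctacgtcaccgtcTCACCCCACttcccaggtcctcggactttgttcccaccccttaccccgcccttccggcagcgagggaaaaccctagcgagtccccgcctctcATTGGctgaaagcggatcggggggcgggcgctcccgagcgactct
Idi1: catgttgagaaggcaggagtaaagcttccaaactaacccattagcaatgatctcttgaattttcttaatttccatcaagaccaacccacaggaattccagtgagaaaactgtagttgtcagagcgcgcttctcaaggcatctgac
Lss: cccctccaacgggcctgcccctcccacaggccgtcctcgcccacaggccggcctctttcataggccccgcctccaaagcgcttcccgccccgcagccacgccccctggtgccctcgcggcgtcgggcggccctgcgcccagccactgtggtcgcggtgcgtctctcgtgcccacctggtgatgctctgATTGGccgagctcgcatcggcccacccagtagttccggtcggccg

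The Hmgcs1 window held 1 match to TCACNCCAC, from -137 to -129 counted from the RefSeq start, and 3 NF-Y boxes. Srebf2 held the shorter core from -162 to -155 and an NF-Y box whose first base is at -135. Idi1 had no match in the letters printed and 2 NF-Y boxes nearer the start, with first bases at -45 and -14. Lss had 1 NF-Y box, at -62. Among 32851 RefSeq windows of 250 bases, TCACNCCAC was found in 346 (1.05%), the shorter core in 1207 (3.67%) and CCAAT in 11120 (33.8%). A match describes the letters only, and the 2 genes with the deepest falls below sham differed in these letters.

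On the table's coordinates (mm10), Srebf2 (ENSMUSG00000022463.7) lies at chr15:82147266-82205376 and Sqle (ENSMUSG00000022351.14) at chr15:59315077-59331192, both on the plus strand. Hmgcs1 (ENSMUSG00000093930.2) lies at chr13:119690379-119708260 and Idi1 (ENSMUSG00000058258.14) at chr13:8885501-8892451, both on the plus strand. Lss (ENSMUSG00000033105.12) lies on the plus strand at chr10:76531588-76557138. Fdps (ENSMUSG00000059743.12) at chr3:89093588-89101959 and Fdft1 (ENSMUSG00000021273.10) at chr14:63145150-63179578 are on the minus strand. Of the exonic bases of Fdft1, 18.3% also belong to Ctsb, the cathepsin B gene on the opposite strand. Of those of Fdps, 26.7% belong to Gm43738 on the same strand. Genes on the opposite strand share 12.1% of those of Hmgcs1 (Gm48342), 9.22% of those of Idi1 (Gm48574) and 3.53% of those of Lss (4930483K19Rik). Whether reads were counted by strand is not given in the sources used here, so reads shared with an opposite-strand gene may be credited to either. Counting by strand would not separate Fdps from Gm43738. Of these overlapping genes only Ctsb has values here. Idi2 is not analysed here.

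No unit is stated for the values, which are read here as FPKM (fragments scaled to transcript length and library total) from their size and range. They summed to between 717415 and 830179 per library. The median gene was 0.42 higher (log2) in UUO7 than in sham, so each comparison is also given after rescaling each library by the median, over genes, of its ratio to the geometric mean of all libraries. Genes with a limma p under 0.05 after Benjamini-Hochberg adjustment over all genes, on log2(FPKM + 1), are termed called. The UUO2 libraries stood apart in mt-Rnr1, a mitochondrial ribosomal RNA, which lay between 2343 and 2832 FPKM there and between 342 and 709 FPKM in the other groups. The series describes a sequencing run of 20 libraries while 24 are given here, and a library difference and the UUO2 condition cannot be told apart. UUO2 replicate 2 differed from the other 3 UUO2 libraries: its summed distal nephron markers were 2331 FPKM against 1015 to 1272, and its proximal tubule markers 2849 against 1665 to 1999.7. Sham replicate 2 carried 128.6 FPKM of adipocyte markers against 0.51 to 0.68 in the other sham libraries. R4W replicate 2 is a 4-week kidney by its title and a 2-week kidney by its treatment label, and the title was followed.

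After 2 days of obstruction Fdps and Sqle rose to the highest levels they had in the series, while Idi1 and Hmgcs1 fell. All 7 genes were called in UUO2 against sham, 5 higher and 2 lower, where 49.2% of all genes were called (32.3% higher and 17.0% lower). After rescaling 5 were called, 3 higher and 2 lower, against 50.8% of all genes (25.3% higher and 25.5% lower). When these 2 groups were fitted alone as deposited, 1 of the 2 lower calls was lost. The median log2 difference was 0.40 over the 7 genes and 0.09 over all genes.

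Fdps, the farnesyl diphosphate synthase, moved most at this time. It measured 15.1, 18.8, 16.0 and 15.9 FPKM in sham replicates 1 to 4, and 78.0, 34.0, 85.7 and 70.8 FPKM in UUO2. Every UUO2 kidney was above every sham kidney, with replicate 2 well under the other 3. The log2 difference was 1.89 (SE 0.19, limma adjusted p = 1.29e-07), 1.77 after rescaling, and 2.18 without UUO2 replicate 2. Gm43738, whose exons overlap those of Fdps, has no values here, and its part in the Fdps value was not tested.

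Sqle measured 25.6, 20.7, 24.2 and 24.4 FPKM in sham and 66.1, 34.6, 66.4 and 53.3 FPKM in UUO2. These groups did not overlap either, and replicate 2 was again the lowest UUO2 kidney. The log2 difference was 1.14 (SE 0.15, limma adjusted p = 2.88e-06), 1.02 after rescaling, and 1.35 without UUO2 replicate 2.

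Idi1 went the other way. It measured 78.3, 50.4, 78.1 and 70.7 FPKM in sham and 35.5, 27.6, 34.7 and 30.6 FPKM in UUO2, with no overlap. The log2 difference was -1.07 (SE 0.17, limma adjusted p = 3.39e-05) and -1.21 after rescaling. Hmgcs1 measured 194.0, 138.8, 194.7 and 189.5 FPKM in sham and 143.6, 172.6, 119.5 and 110.7 FPKM in UUO2. Here the groups overlapped, since sham replicate 2 lay under UUO2 replicates 1 and 2. The log2 difference of -0.40 (SE 0.15) had a limma adjusted p of 0.0319, which rose to as much as 0.123 when 1 library was left out. Leaving out sham replicate 1, 3 or 4, or UUO2 replicate 3 or 4, ended the call of Hmgcs1, and leaving out UUO2 replicate 2 gave -0.52.

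The other 3 members rose less at 2 days. Fdft1 averaged 13.0 ± 1.04 FPKM in sham and 20.2 ± 4.38 in UUO2 (SD, n = 4), a log2 difference of 0.58 (limma adjusted p = 0.000837) that was 0.45 after rescaling. Ctsb, whose exons overlap those of Fdft1, averaged 255 FPKM in sham and 504 in UUO2, and its part in the Fdft1 value was not tested. Lss went from 5.89 ± 0.909 to 8.13 ± 1.33 FPKM, with a log2 difference of 0.40 (limma adjusted p = 0.0269). Srebf2 went from 17.3 ± 1.36 to 21.8 ± 2.39 FPKM, with a log2 difference of 0.31 (limma adjusted p = 0.00737). After rescaling the differences were 0.29 for Lss (limma adjusted p = 0.1) and 0.19 for Srebf2 (limma adjusted p = 0.0723), and neither was called. Rescaled and without UUO2 replicate 2, an alternative added after seeing the data, both were called, at 0.40 (limma adjusted p = 0.0261) and 0.24 (limma adjusted p = 0.0222), and all 7 members with them, where 54.9% of all genes were called. The Lss call as deposited was lost without sham replicate 4 or without UUO2 replicate 1, 3 or 4. In all 3 genes the groups overlapped through UUO2 replicate 2, the lowest UUO2 kidney in each.

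**Figure D1:**
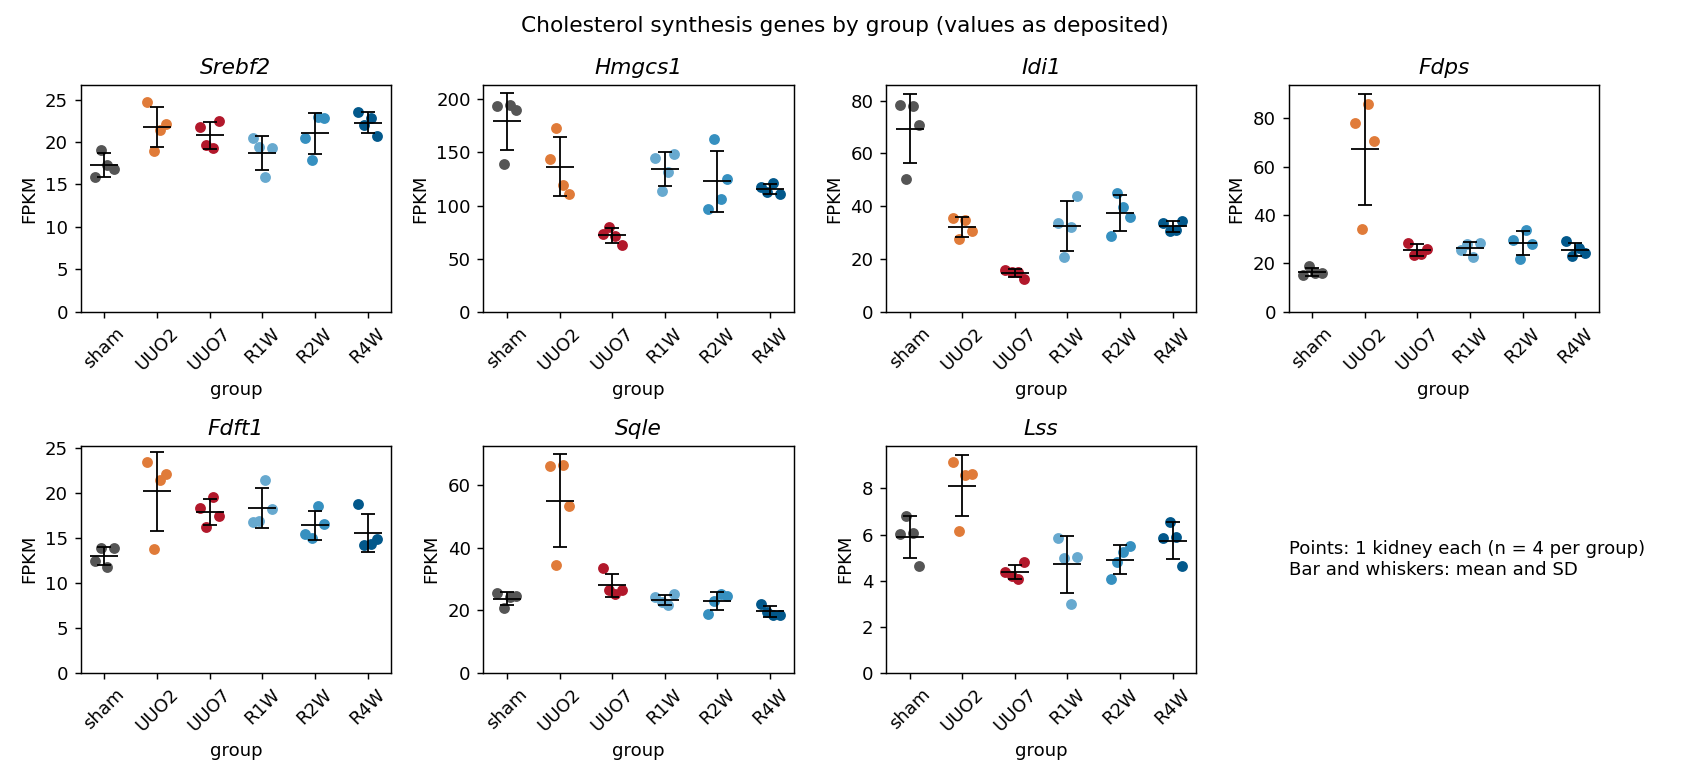
FPKM of each of the 7 genes (y axis, as deposited) in the 6 groups (x axis); points are single kidneys in replicate order, and the bar and whiskers are the mean and SD of 4. Fdps and Sqle peak in UUO2 with means of 67.1 and 55.1 FPKM, while Idi1 and Hmgcs1 are lowest in UUO7 with means of 14.6 and 71.8 FPKM.

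Between 2 and 7 days of obstruction Fdps, Idi1, Sqle, Hmgcs1 and Lss fell. These were the 5 of the 7 genes called in UUO7 against UUO2, where 66.7% of all genes were called (52.0% higher and 14.7% lower). The median log2 difference was -0.90 over the 7 genes and 0.28 over all genes. After rescaling 7 of 7 were lower, where 62.0% of all genes were called (30.0% higher and 31.9% lower). This comparison uses the UUO2 libraries that stood apart, and without UUO2 replicate 2 it called 6 as deposited.

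Idi1 and Hmgcs1 reached their lowest levels at 7 days. Idi1 measured 15.9, 14.9, 15.1 and 12.6 FPKM in UUO7, and Hmgcs1 measured 73.6, 79.5, 71.1 and 63.1 FPKM. No library of another group was as low in either gene. Against UUO2 the log2 difference of Idi1 was -1.08 (limma adjusted p = 1.48e-05) and that of Hmgcs1 was -0.90 (limma adjusted p = 2.2e-05). Against sham the difference of Idi1 was -2.16 (SE 0.17, limma adjusted p = 8.32e-10) and that of Hmgcs1 was -1.30 (SE 0.15, limma adjusted p = 9.82e-08). After rescaling the differences from sham were -2.63 and -1.78, so the choice of scale changed their size and not their sign. In sham the mean of Hmgcs1 lay above that of 96.1% of genes and that of Idi1 above 90.3%. In UUO7 these shares were 88.9% and 55.8%.

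Fdps and Sqle came down from their peak by 7 days. Fdps measured 28.6, 23.4, 24.0 and 26.0 FPKM in UUO7 and Sqle measured 33.5, 26.6, 25.2 and 26.5 FPKM. For both genes every UUO7 kidney was below every UUO2 kidney, with log2 differences of -1.28 for Fdps (limma adjusted p = 6.31e-06) and -0.92 for Sqle (limma adjusted p = 1.73e-05). As deposited all 4 UUO7 kidneys were above sham in Fdps, a log2 difference of 0.61 (limma adjusted p = 0.00676) that was 0.14 after rescaling (limma adjusted p = 0.493). Sqle differed from sham by 0.23 as deposited (limma adjusted p = 0.171) and by -0.24 after rescaling (limma adjusted p = 0.177).

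Lss fell from 2 to 7 days, from 8.13 ± 1.33 to 4.36 ± 0.316 FPKM (SD, n = 4), with no overlap and a log2 difference of -0.76 (limma adjusted p = 0.000128). Its difference from sham was -0.35 (limma adjusted p = 0.0332), or -0.76 after rescaling. The call of Lss against sham as deposited was lost in 6 of 8 fits that left out 1 library, namely without any of sham replicates 1 to 3 or UUO7 replicates 1 to 3, with adjusted p up to 0.1. Fdft1 and Srebf2 changed sign with the scale. Against sham Fdft1 differed by 0.44 in UUO7 as deposited (limma adjusted p = 0.00398) and by -0.02 after rescaling (limma adjusted p = 0.886). Srebf2 was called in both directions, at 0.25 as deposited (limma adjusted p = 0.0163) and at -0.21 after rescaling (limma adjusted p = 0.0313). Its call as deposited was lost without sham replicate 1 or UUO7 replicate 4, with adjusted p up to 0.0564. In the authors' deposited table Srebf2 had a log2 fold change of -0.23 (adjusted p 0.00107) and Fdft1 one of 0.13 (adjusted p 0.224).

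In all, 6 of the 7 genes were called in UUO7 against sham as deposited, 3 higher and 3 lower, where 77.9% of all genes were called (60.1% higher and 17.8% lower). After rescaling 4 were called, all lower, where 73.0% of all genes were called, with 36.5% in each direction. Without sham replicate 1 the count of 6 as deposited was 4, 2 in each direction. In the fit without the UUO2 group it was 7, 4 higher and 3 lower, where 77.7% of all genes were called. The gene added was Sqle, at 0.23 (limma adjusted p = 0.048). By the adjusted p-values of the authors' deposited table, 4 of the 7 genes were lower (p under 0.05), where 73.7% of genes passed in either direction. Idi1 had a log2 fold change of -2.75 in the authors' deposited table and Hmgcs1 one of -1.82.

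**Figure D2:**
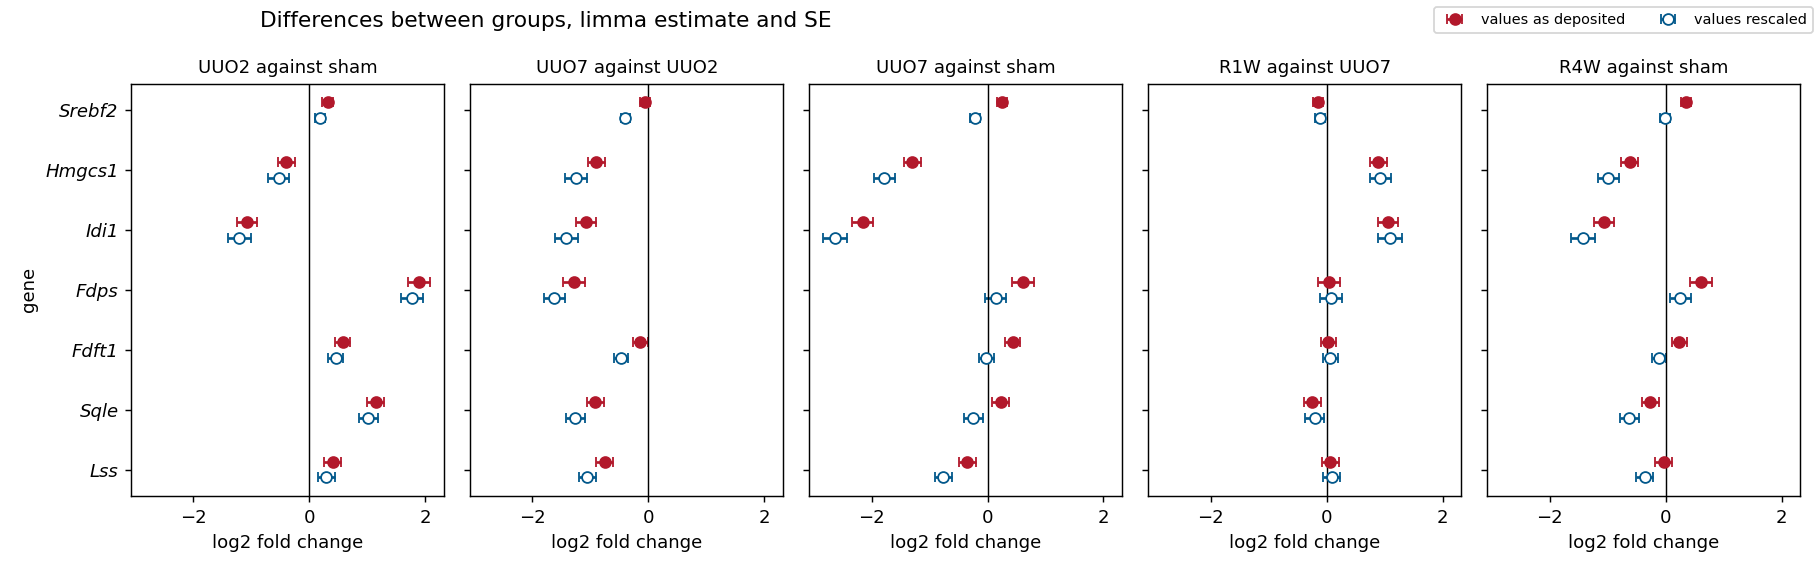
limma log2 differences (x axis) with SE for the 7 genes (y axis) in 5 comparisons, filled for values as deposited and open for rescaled values. Hmgcs1 and Idi1 keep their sign on both scales in each comparison drawn, while Srebf2, Fdft1 and Sqle change sign in UUO7 against sham, from 0.25, 0.44 and 0.23 to -0.21, -0.02 and -0.24.

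A week after the obstruction was undone, Hmgcs1 and Idi1 were higher than at 7 days of obstruction. In R1W against UUO7 these 2 were called higher and 0 lower, on either scale. Of all genes 14.5% were called in that comparison as deposited (6.47% higher and 8.04% lower), and 14.4% after rescaling (7.26% higher and 7.14% lower). Hmgcs1 measured 144.4, 113.6, 131.6 and 148.4 FPKM in R1W, and Idi1 measured 33.7, 20.6, 32.2 and 43.8 FPKM. Each R1W kidney was above each UUO7 kidney in both genes. The log2 differences were 0.89 for Hmgcs1 (SE 0.15, limma adjusted p = 0.00107) and 1.06 for Idi1 (SE 0.17, limma adjusted p = 0.000886). The other 5 genes had differences between -0.24 (Sqle) and 0.06 (Lss), with limma adjusted p from 0.283 to 0.915.

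Later in recovery, Hmgcs1 measured 97.1, 162.5, 106.0 and 125.3 FPKM in R2W, and 117.0, 112.9, 121.3 and 111.0 FPKM in R4W. Idi1 measured 28.9, 44.9, 39.7 and 36.1 FPKM in R2W, and 33.6, 30.5, 30.9 and 34.6 FPKM in R4W. The ranges of R1W, R2W and R4W overlapped for both genes. In R4W against R1W limma called 0 of the 7 genes as deposited, where 19.1% of all genes were called (5.06% higher and 14.1% lower). At an unadjusted p under 0.05 the count was 1 of 7, where 35.4% of all genes passed. By the adjusted p-values of the authors' deposited table it was also 1 of 7, where 17.9% of genes passed. After rescaling limma called 1 of 7, where 17.3% of all genes were called (8.67% higher and 8.6% lower). That gene was Srebf2, higher in R4W by 0.31 (limma adjusted p = 0.0203), compared with 0.24 as deposited (limma adjusted p = 0.0678).

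In R4W against UUO7, 3 genes were called as deposited, 2 higher and 1 lower, where 48.4% of all genes were called (17.6% higher and 30.8% lower). Hmgcs1 was higher by 0.68 (limma adjusted p = 0.000917) and Idi1 by 1.10 (limma adjusted p = 5.05e-05). Sqle, at 21.9, 19.3, 18.6 and 18.5 FPKM in R4W, was below every UUO7 kidney. Its log2 difference was -0.49 (limma adjusted p = 0.0104), a call that was lost after rescaling (-0.38, limma adjusted p = 0.0554). With UUO2 replicate 2 left out as well it was called (limma adjusted p = 0.0141). That library is in neither group, so leaving it out could change only the spread and not the difference. Lss differed by 0.32 as deposited, with a limma adjusted p of 0.0756 in the fit of all libraries, and by 0.41 after rescaling, where it was called (limma adjusted p = 0.0263). As deposited it was called when these 2 groups were fitted alone (limma adjusted p = 0.0241) and without R4W replicate 4 (limma adjusted p = 0.0411). In the authors' deposited table Lss had a log2 fold change of 0.65 with an adjusted p of 2.39e-07. On the rescaled values 3 genes were called, all higher, where 48.3% of all genes were called (25.1% higher and 23.2% lower).

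At 4 weeks Hmgcs1 and Idi1 were still below sham. In R4W against sham the log2 difference of Idi1 was -1.06 (SE 0.17, limma adjusted p = 2.52e-05) and that of Hmgcs1 was -0.62 (SE 0.15, limma adjusted p = 0.0012), with no overlap for either gene. After rescaling they were -1.43 and -0.99. Sham replicate 2 was the lowest sham library for both genes, and without it the differences as deposited were -1.20 and -0.73. Fdps differed from sham by 0.61 as deposited (limma adjusted p = 0.00815) and by 0.25 after rescaling (limma adjusted p = 0.238). Srebf2 differed by 0.35 as deposited (limma adjusted p = 0.00235) and by -0.01 after rescaling (limma adjusted p = 0.934). After rescaling Sqle and Lss were also called lower than sham, at -0.62 (limma adjusted p = 0.00216) and -0.36 (limma adjusted p = 0.0392). As deposited they differed by -0.26 and -0.03, neither called in the fit of all libraries. In the authors' deposited table their log2 fold changes were -0.66 (adjusted p 3.02e-08) and -0.17 (adjusted p 0.197).

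The comparisons with sham share their sham controls and are therefore not independent of each other. Against sham, R1W had 4 members called (2 higher, 2 lower) where 74.1% of all genes were called (59.4% higher and 14.7% lower). R2W had 5 (3 higher, 2 lower) where 69.0% were called (56.1% higher and 12.9% lower). R4W had 4 (2 higher, 2 lower) where 66.4% were called (54.8% higher and 11.6% lower). After rescaling the counts were 5, 4 and 4, with 0 higher in each. Sqle and Lss were among the genes called in each group, at -0.45 and -0.67 in R1W and -0.43 and -0.55 in R2W. Of all genes 68.3% were called in R1W after rescaling (33.7% higher and 34.6% lower), 63.6% in R2W (31.1% higher and 32.5% lower) and 60.1% in R4W (28.9% higher and 31.1% lower). Rescaled and without UUO2 replicate 2 the member counts were 5, 5 and 5, where 69.9%, 65.3% and 62.2% of all genes were called. Fdps was called higher in that fit in R2W (0.37, limma adjusted p = 0.00243) and R4W (0.25, limma adjusted p = 0.0289). In the fit of deposited values without the UUO2 group, R4W against sham had 6 called, where 67.4% of all genes were, adding Fdft1 at 0.24 (limma adjusted p = 0.0389) and Sqle at -0.26 (limma adjusted p = 0.0274). Idi1 and Hmgcs1 were the 2 lower genes as deposited in each group. Idi1 differed from sham by -1.09 in R1W and -0.87 in R2W, and Hmgcs1 by -0.41 and -0.56. The R2W count of 5 was 3 without sham replicate 1, R2W replicate 3 or R2W replicate 4, each of which ended the calls of Srebf2 and Fdft1. The Hmgcs1 call in R1W against sham was lost without sham replicate 1, sham replicate 3 or R1W replicate 2, with adjusted p up to 0.071.

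Ordered by mean FPKM as deposited, the groups ran differently for each gene. For Idi1 the order was sham (69.4), R2W (37.4), R1W (32.6), R4W (32.4), UUO2 (32.1) and UUO7 (14.6). Sham and UUO7 stood clear of their neighbours in this order, and each of the middle groups overlapped the next. For Hmgcs1 the order was sham (179), UUO2 (137), R1W (135), R2W (123), R4W (116) and UUO7 (71.8), and UUO7 alone was clear of its neighbour. For Fdps it was UUO2 (67.1), R2W (28.4), R1W (26.3), R4W (25.7), UUO7 (25.5) and sham (16.4). Here UUO2 at the top and sham at the bottom were clear of their neighbours. For Sqle UUO2 (55.1) was clear of UUO7 (27.9), followed by sham (23.7), R1W (23.4), R2W (22.9) and R4W (19.6), each overlapping the next. Fdft1 ran from 20.2 in UUO2 to 13.0 in sham, and its lowest group, sham, was clear of R4W (15.5). For Srebf2, between 22.3 in R4W and 17.3 in sham, and Lss, between 8.13 in UUO2 and 4.36 in UUO7, each group overlapped the next. On rescaled values sham and UUO7 for Idi1, UUO7 for Hmgcs1 and UUO2 for Fdps and Sqle again stood clear of their neighbours. The low positions of sham in Fdps and Fdft1 were not clear there, since sham overlapped UUO7 in Fdps and its mean for Fdft1 lay above that of R4W.

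Ratios between genes within a library do not depend on how libraries are scaled, and they are given as a description. Fdps over Idi1 was 0.192, 0.372, 0.205 and 0.224 in sham and 2.19, 1.23, 2.47 and 2.31 in UUO2. In UUO7 it was 1.80, 1.57, 1.59 and 2.07. It therefore stayed high at 7 days, when both genes had fallen from their 2-day levels. In R1W it was 0.760, 1.37, 0.709 and 0.651, in R2W 1.03, 0.489, 0.849 and 0.783, and in R4W 0.869, 0.751, 0.855 and 0.699. Every recovering kidney was above the highest sham ratio of 0.372. The 2 enzymes that fell together did so unequally: Hmgcs1 over Idi1 had a median of 2.59 in sham, 4.87 in UUO7 and 3.59 in R4W, with no overlap between sham and either group. Sqle over Fdft1 had a median of 1.91 in sham, 2.67 in UUO2 and 1.27 in R4W, and each UUO2 kidney was above each sham kidney.

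**Figure D3:**
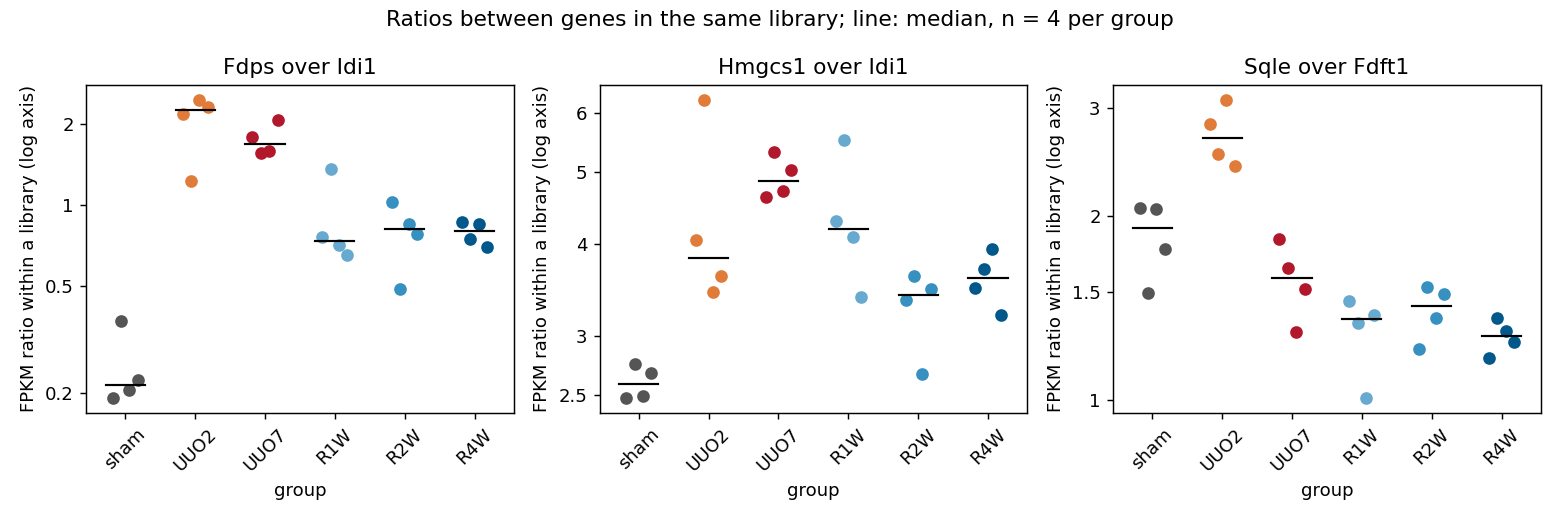
FPKM ratios of 3 gene pairs within each library (y axis, log scale) in the 6 groups (x axis); points are single kidneys and lines are medians of 4. Fdps over Idi1 has a median of 0.215 in sham and 2.25 in UUO2 and is still 0.803 in R4W.

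The rest of the pathway was read from 15 other enzymes, all of which had values. They include Ggps1, which makes geranylgeranyl diphosphate on a side branch, and the others act between acetyl-CoA and cholesterol. In UUO2 against sham 5 were called higher and 5 lower, where 32.3% of all genes were higher and 17.0% lower. After rescaling 4 were higher and 5 lower, against 25.3% and 25.5% of all genes. Without sham replicate 1, 2 or 3 or UUO2 replicate 2 or 4, 3 were lower as deposited. In UUO7 against UUO2 0 were higher and 10 lower, where 52.0% of all genes were higher and 14.7% lower. After rescaling 15 of 15 were lower, against 31.9% of all genes. Their median log2 difference there was -0.48 as deposited, against 0.28 over all genes. In UUO7 against sham 1 was higher and 10 lower, where 60.1% of all genes were higher and 17.8% lower. After rescaling 0 were higher and 13 lower, against 36.5% of all genes in each direction. The single gene called higher was Pmvk, phosphomevalonate kinase, at 0.37 as deposited (limma adjusted p = 0.0015) and -0.08 after rescaling (limma adjusted p = 0.378).

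Among those with the greatest change in UUO7 against sham, Cyp51 (lanosterol demethylase) averaged 93.5 ± 6.41 FPKM in sham, 42.0 ± 10.0 in UUO2, 23.4 ± 2.96 in UUO7 and 46.3 ± 7.17 in R4W (SD, n = 4). Like Idi1 it was lower at 2 days and lowest at 7, with a log2 difference of -1.96 from sham in UUO7 (limma adjusted p = 3.55e-09) and -2.44 after rescaling. Nsdhl, a sterol dehydrogenase, and Mvd, the decarboxylase that makes the first isoprenoid unit, were near their sham levels at 2 days. Nsdhl measured 22.8 ± 1.45 FPKM in sham, 24.1 ± 3.13 in UUO2 and 8.93 ± 1.38 in UUO7, and Mvd 40.9 ± 2.83, 40.1 ± 4.60 and 18.1 ± 0.820. In UUO7 they differed from sham by -1.27 (limma adjusted p = 1.27e-08) and -1.14 (limma adjusted p = 5.67e-08), and by -1.73 and -1.61 after rescaling. In UUO2 the differences were 0.07 and -0.03, with limma adjusted p of 0.664 and 0.858, and -0.06 and -0.16 after rescaling. Msmo1 (sterol methyl oxidase), chosen after its values were seen, rose at 2 days, by 1.26 (limma adjusted p = 7.4e-07) and 1.14 after rescaling. At 7 days its difference from sham was 0.19 (limma adjusted p = 0.238) as deposited and -0.26 after rescaling (limma adjusted p = 0.107).

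During recovery 5 of the 15 were called higher in R1W against UUO7, where 6.47% of all genes were higher, and 9 in R4W against UUO7, where 17.6% were. After rescaling 4 and 9 were higher, against 7.26% and 25.1% of all genes, and 0 were lower on either scale. The R1W count of 5 was 3 without UUO7 replicate 1, and 2 without UUO7 replicate 3 or 4 or R1W replicate 1 or 4. At 4 weeks 8 were still lower than sham and 2 higher, where 11.6% of all genes were lower and 54.8% higher. After rescaling 11 were lower and 0 higher, against 31.1% and 28.9% of all genes. Cyp51 was 0.87 higher in R1W than in UUO7 (limma adjusted p = 0.00382), and its log2 difference from sham in R4W was -1.01 (limma adjusted p = 5.11e-05), or 0.90 and -1.38 after rescaling.

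**Figure D4:**
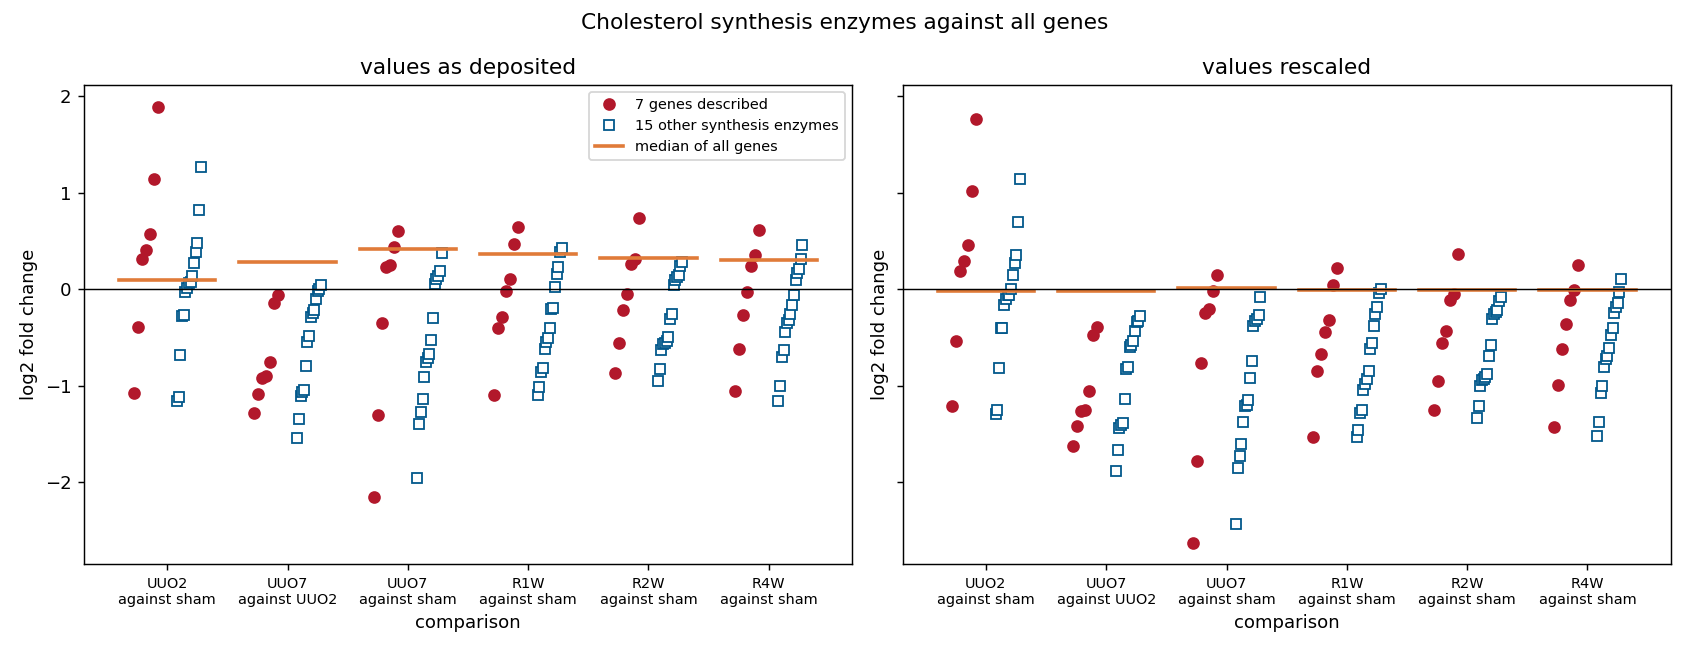
limma log2 differences (y axis) of the 7 genes (filled) and 15 other synthesis enzymes (open) in 6 comparisons (x axis), as deposited on the left and rescaled on the right, with the median of all genes as a line. In UUO7 against UUO2 the medians of the 7 and the 15 are -0.90 and -0.48 against 0.28 for all genes, and after rescaling each of their points lies below 0.

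The counts of the next gene groups in UUO7 against sham stand against 60.1% of all genes called higher and 17.8% lower there, and 36.5% each way after rescaling. Of 6 genes that process or pair with SREBP2, 3 were higher and 1 lower (2 lower without UUO7 replicate 4), and after rescaling 1 was higher and 4 were lower. Insig1, which retains SREBP in the endoplasmic reticulum and is itself an SREBP target, averaged 12.6 ± 1.40 FPKM in sham, 21.9 ± 2.78 in UUO2 and 6.97 ± 0.926 in UUO7 (SD, n = 4). It was higher than sham at 2 days and lower at 7, with log2 differences of 0.75 (limma adjusted p = 0.00608) and -0.77 (limma adjusted p = 0.0025), or 0.63 and -1.21 after rescaling. Srebf1, encoding the SREBP of fatty acid synthesis, was higher than sham by 1.16 in UUO2, by 1.17 in UUO7 and by 1.03 in R4W, and by 1.04, 0.71 and 0.67 after rescaling, with the largest limma adjusted p at 0.000311. Of 10 fatty acid synthesis genes 3 were higher and 2 lower in UUO7 against sham (2 and 3 after rescaling). In R4W against UUO7 6 of the 10 were higher and 0 lower, where 17.6% of all genes were higher, and 7 after rescaling, where 25.1% were. Adipocyte markers moved with that count: of the 5 with values, Adipoq, Plin1 and Retn were called higher in R4W against UUO7, by 2.61, 2.06 and 2.29 (largest limma adjusted p 0.0412). Their summed level was 885 FPKM in R4W replicate 1 and 256 in replicate 3, and 0.64 to 14.9 FPKM in UUO7. Without R4W replicate 1, and also without replicates 1 and 3 together, 3 of the 10 were higher, namely Acly, Acacb and Fads2. Of 7 genes of the prenyl branch, which draws on the same isoprenoids and shares Ggps1 with the 15 enzymes, 2 were higher and 2 lower in UUO7 against sham, and 2 and 5 after rescaling.

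Of 10 genes of cholesterol uptake and transport 6 were higher and 3 lower in UUO7 against sham, and 3 and 3 after rescaling. These shares are near those of all genes given for this comparison (60.1% higher and 17.8% lower, 36.5% each way after rescaling). Gramd1a, a carrier of sterol from the plasma membrane to the endoplasmic reticulum, averaged 15.1 ± 2.33 FPKM in sham and 58.5 ± 6.61 in UUO7 (SD, n = 4), a log2 difference of 1.89 (limma adjusted p = 2.72e-09) and 1.43 after rescaling. Npc2, which binds cholesterol in lysosomes, went from 38.9 ± 1.59 to 94.1 ± 7.67 FPKM, a log2 difference of 1.25 (limma adjusted p = 5.57e-10) and 0.77 after rescaling. Of 8 genes of sterol sensing by LXR, efflux and storage 5 were higher and 2 lower in UUO7 against sham, and 4 and 3 after rescaling, which is also near those shares. Abcg1, an exporter of cholesterol, measured 0.57, 5.16, 0.82 and 0.95 FPKM in sham and 6.86 ± 0.646 in UUO7 (SD, n = 4). Sham replicate 2, the sham library with adipocyte markers, was far above the other 3 and below every UUO7 kidney. The log2 difference was 1.70 (limma adjusted p = 0.000105), 1.38 after rescaling, and 2.14 without sham replicate 2 (limma adjusted p = 2.98e-07).

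Cell markers moved with these results. All 8 proximal tubule markers had values, none at 0, and their summed FPKM was 3846 to 4379 in sham, 1665 to 2849 in UUO2, 913 to 1127 in UUO7, 1301 to 2082 in R1W and 2046 to 2812 in R4W. It was lowest in UUO7 and higher again in recovery, as Idi1 and Hmgcs1 were. The sum of the 7 markers of the distal nephron and collecting duct, none at 0, was likewise lower under obstruction and higher again in recovery. They summed to 2549 to 3143 FPKM in sham, 1015 to 2331 in UUO2, 1335 to 1704 in UUO7, 2194 to 2838 in R1W and 2516 to 3270 in R4W. Single markers differed in UUO2 against sham. There Scnn1g was called higher (0.31, limma adjusted p = 0.00537) and Aqp2 was not called (-0.06, limma adjusted p = 0.91), while the others were called lower. The 7 fibroblast markers, none at 0, summed to 28.5 to 62.2 FPKM in sham, 616 to 783 in UUO7 and 244 to 361 in R4W, highest in UUO7. The 8 macrophage markers, none at 0, summed to 55.1 to 94.9 FPKM in sham, 97.5 to 222 in UUO2, 1146 to 1362 in UUO7 and 780 to 1558 in R4W. In UUO2 against sham Csf1r was called lower (-1.06, limma adjusted p = 3.05e-06) and Adgre1 was not called (0.45, limma adjusted p = 0.167). The other macrophage markers were called higher there. The part of these changes in the results above was not tested, and in bulk tissue fewer cells of a type and less RNA per cell cannot be told apart. Adipocyte markers, with values for 5 of 6, summed to 885 FPKM in R4W replicate 1 and 256 in replicate 3, against 1.58 and 0.5 in the other R4W libraries. Without R4W replicate 1 the Idi1 and Hmgcs1 differences between R4W and sham were -1.07 and -0.62, close to those with it.

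The genes whose level followed the average of the 7 most closely were taken from 7747 genes averaging 10 FPKM or more, by Pearson's r over the 24 libraries, which share groups and scaling. Sh3tc1 (r = 0.857), Mtdh (r = 0.837) and mt-Rnr2 (r = 0.831) came first, and Msmo1 (r = 0.819) was also among the first 10. After rescaling 3 of those 10 were still among the first 10. For single members, read after values were seen, Idi1 was followed by Slc17a3 (r = 0.952), Hspd1 (r = 0.948), Uqcrfs1 (r = 0.948) and Cyp51 (r = 0.947), with 7 of its first 10 kept after rescaling. Hmgcs1 was followed by Aadac and Chac2 (r = 0.938 each), with 9 of 10 kept. Fdps was followed by Ubxn4 (r = 0.942), Eif3j2 (r = 0.937) and Msmo1 (r = 0.930), with 4 of 10 kept, and Sqle by Pklr (r = 0.951) and Eprs (r = 0.945), with 7 of 10 kept.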

How the data were processed

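The deposited table holds 24 libraries in 6 groups of 4 mouse kidneys, grouped by title. Its unit is not stated, and FPKM was inferred here from the values the authors deposited. FastQC, RSEM, Bowtie2, DESeq2 and mm10 are named per the submitters' processing notes, without roles or versions. Each of its 14785 genes averages 1 FPKM or more, so genes of lower expression are not analysed here. The authors also deposited log2 fold changes and adjusted p-values, whose test is not given in the sources used here. Their direction follows the group names, per the file headers, and was checked against the sample columns. No read totals are in the table, so depth is not used and no counting interval is given.

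The test was limma (3.58.1, with trend, under R 4.3.3) applied to log2(FPKM + 1) in a single fit of the 24 libraries, and p-values were adjusted over all genes. Such differences understate the change of low genes. Tables and figures were made with Python 3.11.15, numpy 2.4.6, pandas 2.3.3 and matplotlib 3.10.9. Promoter windows and their start sites come from RefSeq (GRCm38.p6), and gene overlaps from GENCODE. The members and gene lists were chosen with earlier results of these data known. All 7 members are described, and values of some listed genes are not reported here. Up to 4 called genes of each other list could be named, by greatest absolute log2 difference in UUO7 against sham, beside any gene needed to state a count of 5 or fewer. Alternatives were rescaled values, pseudocounts of 0.1 and 10, a mean of at least 5 FPKM, an absolute log2 difference of at least 1, fits of 2 groups, a fit without UUO2, R4W replicate 2 placed in R2W, a replicate block, and each replicate left out. Rescaled values without UUO2 replicate 2, and a fit without R4W replicates 1 and 3, were added after seeing the data. Tested on simulated data for UUO7 against sham (14785 genes, 200 changed), the fit called 92 changed genes at a log2 change of 1, 94 at 2, and 9 unchanged genes. The simulated libraries had no shift in scale, and few genes were changed. In the deposited values 77.9% of genes were called there, so the simulation does not show the error rate under those conditions.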

Additional observations from a re-analysis of the deposited data

Results flagged for a closer look

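In 3 of 42 groups of 4 kidneys 1 library lay far from the other 3 by Dixon's ratio of gap to range, where chance alone gives about 2.1. Hmgcs1 was 138.82 FPKM in sham replicate 2, the sham library with adipocyte markers. Fdft1 was 18.75 FPKM in R4W replicate 1, the library with the highest adipocyte marker sum. Sqle was 33.47 FPKM in UUO7 replicate 1.

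The effect of obstruction differed between day 7 and day 2 in 5 of the 7 genes by the limma comparison of UUO7 with UUO2, in which the sham controls cancel. Of all genes 66.7% were called there (52.0% higher and 14.7% lower). As deposited the log2 differences of the 5 were -1.28 for Fdps, -1.08 for Idi1, -0.92 for Sqle, -0.90 for Hmgcs1 and -0.76 for Lss. After rescaling 7 of 7 were lower, where 30.0% of all genes were called higher and 31.9% lower. The UUO2 libraries stood apart in mt-Rnr1.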

How the results depend on the processing

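Of 63 member differences (7 genes in 9 comparisons) 36 were called as deposited and 35 after rescaling: 23 calls kept their direction, 1 was called in the opposite direction (Srebf2, UUO7 against sham), 12 ended and 11 were added. Rescaling reversed 9 differences, among them 4 of the ended calls (Srebf2 in R2W and R4W and Fdft1 in UUO7 and R2W, against sham) and 1 of those added (Srebf2 in R1W against sham). The reversed values were Srebf2 at -0.21 (UUO7), -0.32 (R1W), -0.11 (R2W) and -0.0093 (R4W) against sham, Fdft1 at -0.021 (UUO7), -0.051 (R2W) and -0.11 (R4W) against sham, Sqle at -0.24 (UUO7) against sham, and Fdps at 0.035 in R4W against R1W. Leaving out UUO2 replicate 2 as well could not move these values, since none of these comparisons uses UUO2 and the scaling was kept. In such comparisons it changes only the spread. R4W against R1W had 1 member called on rescaled values with or without UUO2 replicate 2. Without it, rescaled values called 7 in UUO2 against sham (5 with it), 5 in R4W against UUO7 (3 with it, and 50.2% of all genes without it), and 5 each in R2W and R4W against sham (4 each). With R4W replicate 2 placed in R2W, Fdps in R4W against R1W was 0.017, and the other 27 member differences kept direction and call.

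Requiring an absolute log2 difference of at least 1 left 3 members in UUO2 against sham (8.75% of all genes), 2 in UUO7 against sham (27.6%), 2 in UUO7 against UUO2 (16.2%), 1 in R1W against UUO7 (1.33%), R4W against UUO7 (6.03%), R1W against sham (20.4%) and R4W against sham (14.8%), and 0 in R2W against sham (16.6%). In the last, 5 had an unadjusted limma p under 0.05, as did 71.7% of all genes. Over all genes it left from 114 (of 2830, R4W against R1W) to 4076 (of 11512, UUO7 against sham). Fitting 2 groups alone called 161 genes in R4W against R1W. Leaving out 1 library took that count to as few as 728, and the 2145 of R1W against UUO7 to as few as 1116.

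Replicate numbers did not pair the animals: same-numbered libraries deviated together with mean r from -0.174 to 0.148. The fit with a replicate block kept the direction of all 63 member differences and whether each was called, as did both pseudocounts and the FPKM filter. Without R4W replicates 1 and 3 together, Fdps was -0.11 in R4W against UUO7, and its call in R4W against sham ended (0.50, limma adjusted p = 0.0866).

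With 1 library left out, 3 to 5 members were called in R2W against sham and 0 to 1 in R4W against R1W. Differences that changed sign were Fdft1 (-0.045 to 0.072) and Lss (-0.037 to 0.23) in R1W against UUO7, Fdps (-0.055 to 0.060) in R4W against UUO7, Sqle in R1W (-0.079 to 0.019) and R2W (-0.12 to 0.036) against sham, Lss (-0.12 to 0.052) in R4W against sham, and Idi1 (-0.16 to 0.19) and Fdps (-0.097 to 0.017) in R4W against R1W, none of them called. The cause of lost calls was not tested. The scale limits the direction against sham of Srebf2 in UUO7 and R1W to R4W. It also limits that of Fdft1 in UUO7, R2W and R4W, and of Sqle in UUO7. In the authors' deposited table Srebf2 was -0.23 in UUO7, -0.34 in R1W, -0.13 in R2W and -0.02 in R4W against sham. There Fdft1 was 0.13 in UUO7, 0.06 in R2W and -0.06 in R4W, and Sqle was -0.27 in UUO7. The 4 animals a group limit small differences.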
